A study of Homo sapiens with 4 samples.

Results

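The genes described here are the human Argonaute family: the 4 PIWI genes PIWIL1, PIWIL2, PIWIL3 and PIWIL4 and the 4 AGO genes AGO1, AGO2, AGO3 and AGO4. They were chosen by name, and all 8 had a row among the 25680 rows of each library's gene table. Transcripts were measured by RNA-seq in THP-1, an established human monocytic leukaemia line used as a model of acute myeloid leukaemia. In the shPIWIL4 group (n = 2 libraries) the cells carried a lentivirus with a short hairpin RNA (shRNA) aimed at PIWIL4. In the Scrambled group (n = 2 libraries) they carried a lentivirus with a scrambled shRNA. Cells of both groups were sorted 48 hours after transduction, and total RNA was used. Only 1 cell line and 1 PIWIL4 hairpin are named, and the labels do not say whether libraries 1 and 2 of a group came from separate cultures, so p-values measure the spread between these libraries, which may be technical.

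Argonaute proteins hold a small RNA and use it to find matching transcripts. The AGO branch is present in nearly all cells and is guided by microRNAs and small interfering RNAs. AGO2 is the member best known for cutting a matched target, and all 4 AGO proteins can repress translation and lead messages to decay through TNRC6 proteins. The PIWI branch is best known from the germline, where it binds PIWI-interacting RNAs (piRNAs) and silences transposons. An shRNA is itself cut by DICER1 and loaded into AGO proteins, so cells of both groups carried a substrate of that branch.

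Of the 8 genes, 6 had enough reads to be tested and 4 were called at an adjusted p under 0.05, 1 higher and 3 lower in shPIWIL4. Calls were frequent in this comparison: 57.7% of the 16108 genes tested were called. PIWIL4 and PIWIL2 fell by at least 2-fold, a size of fall called for 11.3% of genes tested. Changes among the AGO genes were small, with AGO1 higher and AGO2 lower. PIWIL1 and PIWIL3 were at or near 0 in every library. All p-values of single genes are from edgeR's quasi-likelihood test, adjusted by Benjamini-Hochberg over all genes tested, and log2 fold changes are shPIWIL4 over Scrambled.

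**Figure D1:**
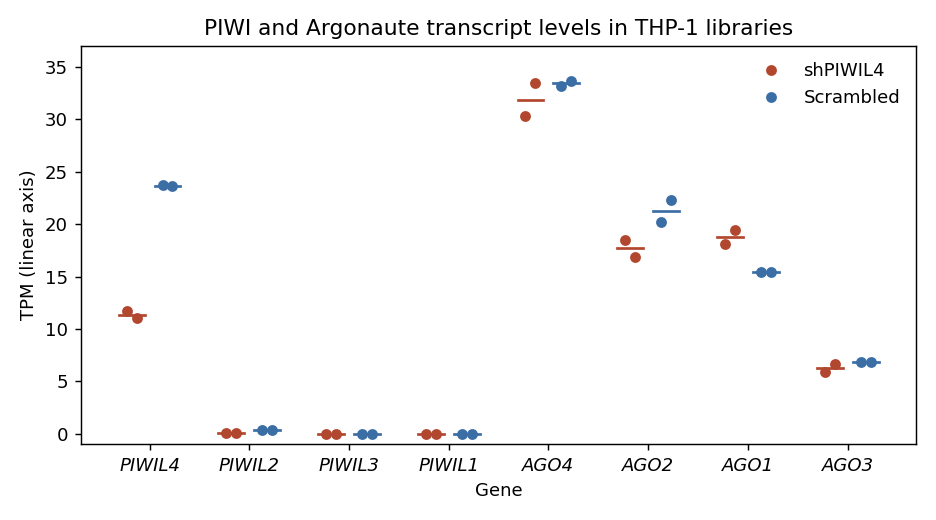
TPM (linear axis, length-scaled transcript level) of the 8 genes in each library. Points are libraries and bars are means of 2; red is shPIWIL4, blue Scrambled. PIWIL4 stands at 11.7 and 11.0 TPM in shPIWIL4 and at 23.7 and 23.6 TPM in Scrambled, and the points of AGO4 overlap between the groups.

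PIWIL4, also called HIWI2, is encoded on chromosome 11 and is the gene aimed at by the hairpin. It had 902 and 904 reads in shPIWIL4 libraries 1 and 2, against 1223 and 1963 reads in Scrambled libraries 1 and 2. On the TPM scale, which divides by gene length and by the total of each library, its level was 11.7 and 11.0 TPM in shPIWIL4, against 23.7 and 23.6 TPM in Scrambled. Both shPIWIL4 libraries were therefore below both Scrambled libraries, by far more than replicates differed. The log2 fold change was -1.10 (SE 0.09, adjusted p = 1.3e-05), with a 95% interval from -1.31 to -0.90, so that 46.5% of the Scrambled level remained (interval 40.3% to 53.7%). As the gene aimed at, PIWIL4 serves here as a check of the labels. Groups were taken from the sample titles, since the treatment entry of the shPIWIL4 libraries names both a scrambled shRNA and PIWIL4. With 1 hairpin, what followed from less PIWIL4 and from other effects of the hairpin cannot be told apart. In bulk RNA, a smaller number of cells that express a gene and less of its RNA in each cell cannot be told apart.

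The fall of PIWIL4 was not unusual in size in these libraries: 1605 of the 16108 tested genes, or 9.96%, had a more negative log2 fold change. Profiles over the 4 libraries were compared by Euclidean distance of centred log2 CPM (reads scaled to library size with TMM factors). Only called genes were taken, without placeholder names (such as LOC, LINC or KIAA) or date-like names. Among these, the closest to PIWIL4 were CAMKV, RAB11FIP4, NRG4, FAM212B and GSTZ1. Their distances were 0.025 for CAMKV and 0.035 to 0.039 for the others, and their log2 fold changes lay between -1.13 and -1.09. With 4 libraries such a distance mostly repeats the size of the group difference.

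PIWIL2, on chromosome 8 and known as HILI in human and MILI in mouse, acts in mouse testis in the piRNA amplification cycle. It had 9 and 9 reads in shPIWIL4, against 26 and 42 reads in Scrambled. The counting intervals (exact Poisson, 95%) were 4.12 to 17.1 reads in each shPIWIL4 library, against 17.0 to 38.1 and 30.3 to 56.8 reads in Scrambled libraries 1 and 2. These intervals cover counting error only and are in raw reads, not scaled for depth. In raw reads, that of Scrambled library 1 began just below where those of shPIWIL4 ended. That library had 31458079 total counts, against 50689304 and 53657246 in shPIWIL4 libraries 1 and 2. On the TPM scale PIWIL2 was at 0.0911 and 0.0857 TPM in shPIWIL4, against 0.394 and 0.394 TPM in Scrambled. The groups did not overlap, but every value was below 1 TPM. The log2 fold change was -2.18 (SE 0.31, adjusted p = 2.9e-04), with an interval from -2.88 to -1.49. Its size rests on few reads: on log2(TPM + 1), a scale that compresses low values, the difference was -0.36.

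PIWIL1 (HIWI), a PIWI gene on chromosome 12 known from the testis, had 0 reads in all 4 libraries. A count of 0 was read as allowing up to 3 reads in a library, a set limit. It is not the exact Poisson 95% interval used for PIWIL2, which at 0 reads runs to 3.69 reads. In CPM, 3 reads are 0.0592 and 0.0577 in shPIWIL4 libraries 1 and 2. They are 0.0944 and 0.0568 CPM in Scrambled libraries 1 and 2. PIWIL3, a PIWI gene on chromosome 22 known from oocytes, had 0 and 0 reads in shPIWIL4, against 1 and 0 reads in Scrambled. Neither gene was tested, and a difference in either was not detectable at this depth. PIWIL4 therefore made up nearly all PIWI transcript: 99.2% and 99.2% of the summed PIWI TPM in shPIWIL4, against 98.3% and 98.4% in Scrambled. That sum was 11.8 and 11.1 TPM in shPIWIL4, against 24.1 and 24.0 TPM in Scrambled.

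**Figure D2:**
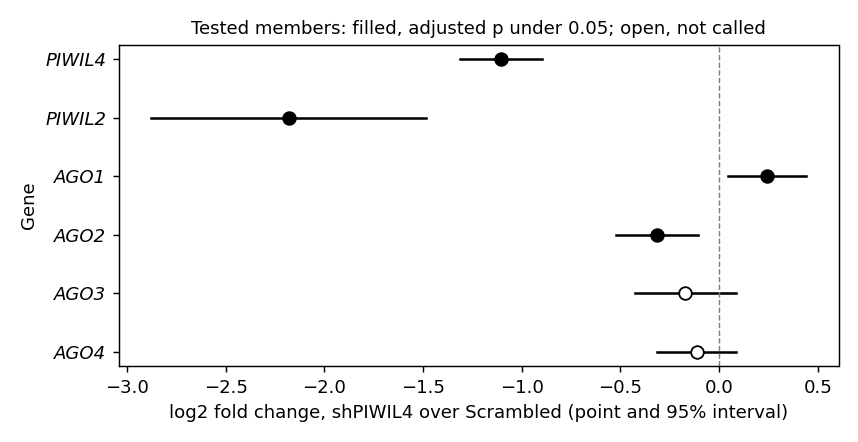
Log2 fold change (shPIWIL4 over Scrambled) of the 6 tested genes, with 95% intervals from edgeR; filled points were called at an adjusted p under 0.05 and open points were not. PIWIL4 and PIWIL2 have intervals that end at -0.90 and -1.49, and the AGO estimates lie between -0.31 and 0.24.

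Among the AGO genes, AGO1 was higher in shPIWIL4. It had 3272 and 3734 reads in shPIWIL4, against 1863 and 2992 reads in Scrambled. Its level was 18.1 and 19.5 TPM in shPIWIL4, against 15.5 and 15.4 TPM in Scrambled, and the groups did not overlap. The log2 fold change was 0.24 (SE 0.09, adjusted p = 0.038), a rise of 18.3% with an interval from 3.24% to 35.7%. This call is close to its threshold. It was lost with upper-quartile factors (0.12, adjusted p = 0.25), which moved the median of all genes to -0.12 and left AGO1 0.25 above that median. It was also lost without shPIWIL4 library 2 (0.17, adjusted p = 0.095), without Scrambled library 1 (0.29, adjusted p = 0.096) or without Scrambled library 2 (0.22, adjusted p = 0.22).

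AGO2, on chromosome 8 and encoding the best known slicer, was lower. It had 1560 and 1514 reads in shPIWIL4, against 1141 and 2032 reads in Scrambled. Its level was 18.5 and 16.9 TPM in shPIWIL4, against 20.2 and 22.3 TPM in Scrambled. Again the groups did not overlap, although the gap between the nearest libraries of the groups was narrower than that between the Scrambled libraries. The log2 fold change was -0.31 (SE 0.09, adjusted p = 0.016), a change of -19.5% with an interval from -30.3% to -7.12%. Without Scrambled library 1 it was -0.34 (adjusted p = 0.073), and without Scrambled library 2 it was -0.26 (adjusted p = 0.20).

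AGO3 and AGO4 were not called. AGO3, which can also cut targets given a suitable guide, was at 5.93 and 6.61 TPM in shPIWIL4, against 6.84 and 6.86 TPM in Scrambled. Its log2 fold change was -0.17 (SE 0.11, adjusted p = 0.23), with an interval from -0.43 to 0.09. AGO4, which lacks slicing activity, was the most abundant member by TPM, at 30.3 and 33.4 TPM in shPIWIL4, against 33.2 and 33.7 TPM in Scrambled. On this scale its groups overlapped, and its log2 fold change was -0.11 (SE 0.09, adjusted p = 0.31), between a change of -19.4% and one of 6.33%. Without shPIWIL4 library 2, however, AGO4 was called lower (-0.20, adjusted p = 0.036). All 6 tested genes had CPM values that did not overlap between the groups, where 78.6% of all tested genes did so, so that a lack of overlap says little in this comparison.

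By TPM, the Scrambled libraries ranked AGO4 first, followed by PIWIL4, AGO2, AGO1, AGO3 and PIWIL2. The lower Scrambled value of PIWIL4, 23.6 TPM, exceeded the higher value of AGO2, 22.3 TPM, by less than the spread between the AGO2 libraries. In shPIWIL4 the order was AGO4, then AGO1 and AGO2 with overlapping values, then PIWIL4, AGO3 and PIWIL2. AGO4 exceeded between 74.0% and 78.5% of the genes with a TPM above 0 in a library, and PIWIL4 between 55.7% and 71.3%. The order depends on the gene lengths the authors divided by, which were recovered as 7478 bases for AGO1, 3500 for AGO2, 3645 for AGO3, 7060 for AGO4 and 3199 for PIWIL4. The longest coding transcripts of GENCODE release 29 are 13708 bases for AGO1, 14581 for AGO2 and 19687 for AGO3, far from the recovered lengths, while those of AGO4 (7116 bases) and PIWIL4 (3199 bases) are close or equal to them. Comparisons of 1 gene between groups do not depend on this length.

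**Figure D3:**
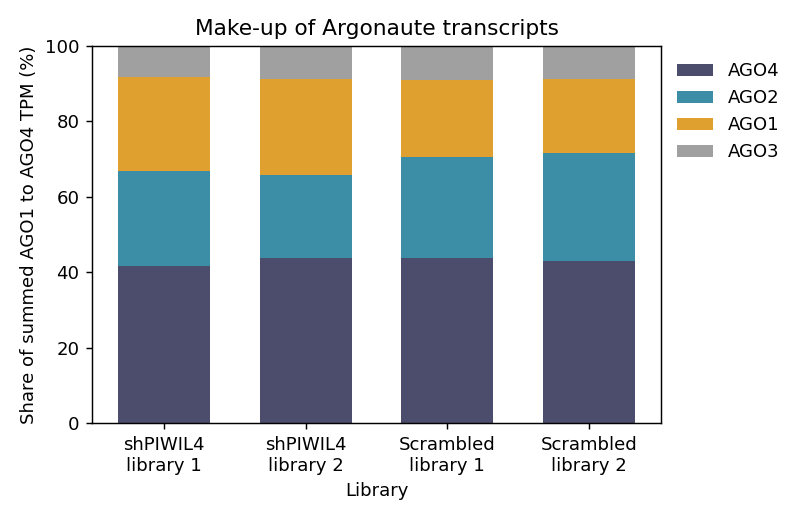
Share (%) of each AGO gene in the summed TPM of AGO1 to AGO4, per library. AGO1 takes 24.9% and 25.5% in shPIWIL4 and 20.4% and 19.7% in Scrambled; AGO2 takes 25.4% and 22.1% in shPIWIL4 and 26.7% and 28.5% in Scrambled.

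The summed level of the 4 AGO genes was 72.9 and 76.4 TPM in shPIWIL4, against 75.7 and 78.3 TPM in Scrambled, and the groups overlapped. AGO1 made up 24.9% and 25.5% of it in shPIWIL4, against 20.4% and 19.7% in Scrambled. AGO4 made up 41.6% and 43.8% in shPIWIL4, against 43.9% and 43.0% in Scrambled, and AGO3 between 8.13% and 9.03% in all 4 libraries. PIWIL4 transcript equalled 16.0% and 14.4% of the AGO sum in shPIWIL4, against 31.3% and 30.2% in Scrambled.

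A ratio of 2 genes within 1 library needs no scaling between libraries. AGO1 had 2.10 and 2.47 reads per AGO2 read in shPIWIL4, against 1.63 and 1.47 in Scrambled. Per AGO4 read it had 0.633 and 0.617 in shPIWIL4, against 0.493 and 0.484 in Scrambled. Per AGO3 read it had 6.28 and 6.04 in shPIWIL4, against 4.63 and 4.60 in Scrambled. In each of these ratios the shPIWIL4 libraries were both higher, and for AGO3 and AGO4 the gap between groups was several times the spread within them. The mean differences in log2 ratio were 0.55 for AGO2, 0.42 for AGO3 and 0.36 for AGO4. An exact two-sided permutation test gave p = 0.333 for each, the smallest value that 2 libraries against 2 can give, so these ratios could not pass a threshold. The ratios of AGO2 to AGO3 and of AGO2 to AGO4 overlapped between the groups (exact permutation p = 0.667 for both). The ratio of AGO3 to AGO4 did not overlap, at 0.101 and 0.102 in shPIWIL4, against 0.106 and 0.105 in Scrambled (exact permutation p = 0.333). So 4 of the 6 pairs of AGO genes did not overlap. Most of those pairs contain AGO1, so they are not separate results. The share over all pairs of genes was not computed, and 78.6% of single tested genes did not overlap in CPM, so this count says little. The ratios set AGO genes against each other and do not show which of them stayed level.

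**Figure D4:**
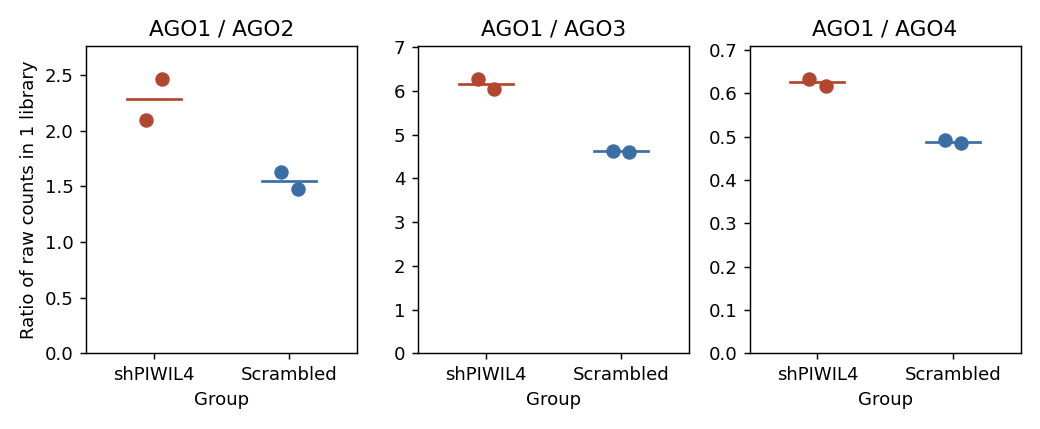
Raw AGO1 reads per read of AGO2, AGO3 or AGO4 within each library (linear axes from 0); points are libraries and bars are means of 2. Both shPIWIL4 libraries lie above both Scrambled libraries in each panel, with 0.633 and 0.617 in shPIWIL4 and 0.493 and 0.484 in Scrambled for AGO4.

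AGO4, AGO1 and AGO3 lie next to each other in this order on chromosome 1, on the same strand. Because they lie side by side, the start regions of these 3 genes are shown as a description. Whether these regions bear on the ratios above was not tested. Each runs from 250 bases before to 50 bases after the gene's start in RefSeq (GRCh38.p14, plus strand) and reads 5′ to 3′. Capitals mark letters matched by 1 of 5 motifs searched on either strand. These were the GC box with the letters GGGCGG, the CCAAT box, the TATA box with the letters TATAAA, the E box with the letters CACGTG and the ETS core with the letters CCGGAAG. The windows are chr1:35807766-35808065 for AGO4, chr1:35882959-35883258 for AGO1 and chr1:35930855-35931154 for AGO3.
AGO4: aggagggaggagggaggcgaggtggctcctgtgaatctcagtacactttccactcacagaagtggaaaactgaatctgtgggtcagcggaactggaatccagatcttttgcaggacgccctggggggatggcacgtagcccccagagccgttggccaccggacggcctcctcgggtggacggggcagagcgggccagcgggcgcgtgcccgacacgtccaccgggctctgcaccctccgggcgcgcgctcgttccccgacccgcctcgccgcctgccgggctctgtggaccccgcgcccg
AGO1: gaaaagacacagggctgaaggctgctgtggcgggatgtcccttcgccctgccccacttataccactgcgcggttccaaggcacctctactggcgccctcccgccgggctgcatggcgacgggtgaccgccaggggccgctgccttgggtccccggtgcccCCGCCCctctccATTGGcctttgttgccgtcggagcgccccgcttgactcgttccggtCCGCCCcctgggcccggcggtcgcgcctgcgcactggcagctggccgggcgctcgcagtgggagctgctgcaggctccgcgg
AGO3: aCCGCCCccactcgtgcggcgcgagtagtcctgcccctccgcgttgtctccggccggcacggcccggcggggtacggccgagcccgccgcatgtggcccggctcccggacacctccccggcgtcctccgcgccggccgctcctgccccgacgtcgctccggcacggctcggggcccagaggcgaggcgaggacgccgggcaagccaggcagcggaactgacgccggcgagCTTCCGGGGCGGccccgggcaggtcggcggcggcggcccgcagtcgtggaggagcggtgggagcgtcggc
AGO1 held 2 GC boxes and 1 CCAAT match, AGO3 held 2 GC boxes and 1 ETS core that shares letters with one of them, and AGO4 held none of the 5 motifs. Of 35116 RefSeq windows of this kind, 45.0% held a GC box, 34.6% a CCAAT match, 11.5% a TATAAA match, 10.3% an ETS core and 7.26% an E box. The windows held 29 CpG pairs in AGO4, 30 in AGO1 and 50 in AGO3, against a median of 14 over all windows. These matches describe the letters and are not binding sites.

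The nearest protein-coding genes on either side of each member were also examined. The neighbours of PIWIL4 are FUT4, a fucosyltransferase gene, and AMOTL1, an angiomotin-like gene. FUT4 and AMOTL1 had log2 fold changes of 0.15 (adjusted p = 0.17) and -0.03 (adjusted p = 0.81), so neither was called. CLSPN, which encodes the replication checkpoint protein claspin and precedes AGO4, rose by 0.40 (SE 0.10, adjusted p = 6.9e-03), and TEKT2, which follows AGO3, was at 0.215 TPM on average in shPIWIL4 and at 0.269 TPM in Scrambled and was not called. Beside AGO2, the chromatin accessibility gene CHRAC1 rose by 0.78 and PTK2, the focal adhesion kinase gene, fell by 0.49. Beside PIWIL2, SLC39A14, a zinc and iron transporter gene, rose by 0.79, and the RNA polymerase III subunit gene POLR3D was not called (0.12, adjusted p = 0.37). LRRC75B, beside PIWIL3, fell by 0.97. In all, 9 of 12 flanking genes were tested, with 3 higher and 2 lower, where 57.7% of all tested genes were called. RefSeq also lists PIWIL4-AS1, which overlaps PIWIL4 on the other strand. The counting strand is not given in the sources used here, so reads of the 2 genes cannot be told apart.

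**Figure D5:**
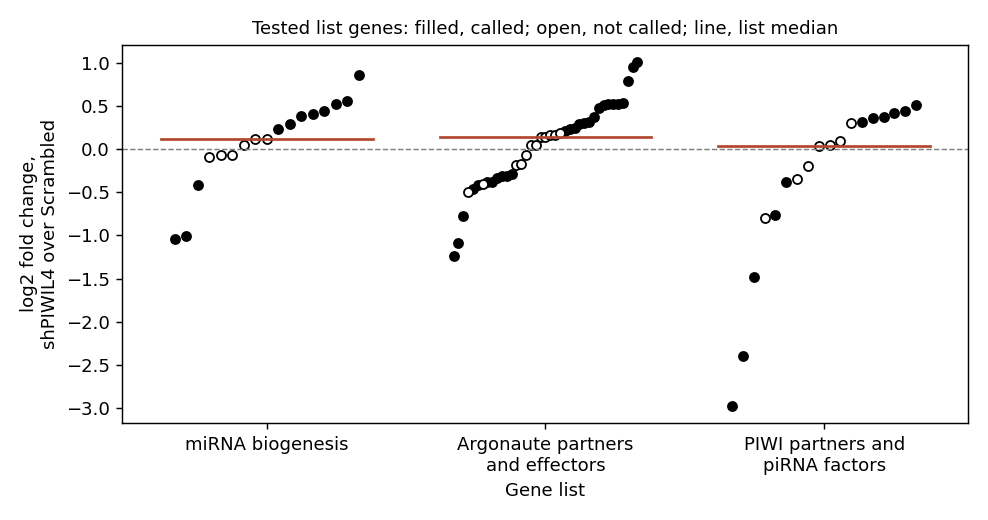
Log2 fold change (shPIWIL4 over Scrambled) of each tested gene in 3 lists of small RNA genes, ordered within each list; filled points were called, open points were not, and the red line is the list median. The medians lie at 0.12, 0.14 and 0.04, close to 0, with called genes on both sides of it.

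A list of genes that make microRNAs or act on their precursors had members called in both directions. Of its 17 tested members, 8 rose and 3 fell, or 64.7% called where 57.7% of all tested genes were. The median log2 fold change was 0.12 over the list and -0.0035 over all tested genes. The 8 that rose were DGCR8, XPO5, RAN, DICER1, TARBP2, ADAR, SRRT and NCBP1, and the 3 that fell were LIN28B, ZCCHC11 and ZCCHC6 (those outside the naming rule were named after their values were seen). DROSHA, which makes the first cut of microRNA transcripts, was not called (0.11, adjusted p = 0.34). DICER1, the nuclease that cuts microRNA precursors and shRNAs, rose to 134 ± 4.52 CPM in shPIWIL4, against 91.3 ± 0.209 CPM in Scrambled (SD, n = 2 each). NCBP1, a cap-binding gene, rose by 0.86 (SE 0.09). Upper-quartile factors moved the median of all genes by about as much as this list's median, to -0.12. LIN28B, whose protein binds let-7 precursors, was at 11.5 ± 0.840 CPM in shPIWIL4, against 23.8 ± 0.110 CPM in Scrambled (SD, n = 2 each). TUT4, listed as ZCCHC11 and encoding an enzyme that adds uridines to those precursors, was at 66.4 ± 5.27 CPM in shPIWIL4, against 134 ± 3.14 CPM in Scrambled. Its paralog TUT7 (listed as ZCCHC6) fell by 0.41. LIN28A and DIS3L2, which also act on let-7 precursors, were not called (-0.07, adjusted p = 0.92, and 0.12, adjusted p = 0.28). By edgeR's quasi-likelihood test, called genes given with levels or fold changes here had adjusted p from 1.5e-05 (ZCCHC11) to 4.7e-03 (ZCCHC6). Those of ADAR and RAN were nearer the threshold, at 0.026 and 0.041 by the same test. The count of higher members was 6 with upper-quartile factors or with library number as an added term.

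Partners and effectors of AGO proteins were also split, with 16 of 39 tested members higher and 11 lower and a median of 0.14. This was 69.2% called, where 57.7% of all tested genes were. The scaffold gene TNRC6A, whose protein joins AGO to the deadenylases, rose to 137 ± 10.4 CPM in shPIWIL4, against 68.0 ± 3.73 CPM in Scrambled (SD, n = 2 each). Its 2 paralogs, named after their values were seen, differed: TNRC6C rose by 0.52 (SE 0.09, adjusted p = 1.1e-03), and TNRC6B fell by 0.32 (SE 0.09, adjusted p = 0.011). The subunits of prolyl 4-hydroxylase, an enzyme of collagen folding that also modifies AGO2, moved in opposite directions. P4HA1 fell by 1.24 (SE 0.09, adjusted p = 4.8e-06) and P4HB rose by 0.95 (SE 0.10, adjusted p = 4.2e-05). AJUBA, a LIM-domain partner gene, fell by 1.09. The count of higher members was 9 with upper-quartile factors or without Scrambled library 2, and that of lower members was 7 without Scrambled library 1.

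PIWI partners and piRNA factors gave 6 higher and 5 lower of 18 tested, with a median of 0.04. This was 61.1% called, where 57.7% of all tested genes were. Of the 27 listed genes, 14 stayed below 1 TPM in all libraries. TDRD5, a Tudor-domain gene of male germ cells in mouse, was at 0.077 and 0.164 TPM in shPIWIL4, against 0.651 and 0.610 TPM in Scrambled, and fell by 2.39 (SE 0.32). GPAT2, an acyltransferase gene, fell by 0.76, while the Tudor nuclease gene SND1 and the arginine methyltransferase gene PRMT5, which marks PIWI proteins for Tudor binding, rose by 0.52 and 0.42. GTSF1, a PIWI cofactor (named after its value was seen), was at 430 and 524 TPM in shPIWIL4, against 401 and 352 TPM in Scrambled, and was not called (0.30, adjusted p = 0.061). Its level was far above that of PIWIL4 in every library. Higher members numbered 2 without Scrambled library 2, and lower members numbered 3 without Scrambled library 1 and 2 without Scrambled library 2. Of 13 germline genes, 10 stayed below 1 TPM in all libraries and 5 were tested. Of those tested, 1 was higher and 2 were lower (60% called, close to the 57.7% of all tested genes). SYCP3, of the synaptonemal complex, rose by 0.71. SYCP1, of the same complex, fell by 0.24 (edgeR's adjusted p = 0.043, near the threshold). NANOS3 fell by 2.55 with at most 18 reads in any library. Lower germline genes numbered 1 without shPIWIL4 library 1, without Scrambled library 1 or without Scrambled library 2.

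Total counts ran from 31458079 to 53657246 per library, with Scrambled library 1 the shallowest. All 10 monocytic markers were at 1 TPM or more in every library, among them CD33, SPI1 and CEBPA. Where 57.7% of all tested genes were called, 3 of these markers were higher and 2 lower in shPIWIL4. Their summed TPM was 3458 to 3619 in shPIWIL4 and 1014 to 1079 in Scrambled, most of that difference in the lysozyme gene LYZ, which averaged 2465 ± 48.6 TPM in shPIWIL4 and 195 ± 11.6 TPM in Scrambled (SD, n = 2 each). T cell, epithelial and fibroblast markers stayed below 1 TPM in all libraries, with CD3E, KRT19 and COL3A1 at 0. The fibroblast marker COL1A1 had 9 and 15 reads in shPIWIL4, against 58 and 125 reads in Scrambled, and was called lower (log2 fold change -3.17, edgeR's adjusted p = 2.0e-05). Among B cell markers, the transcription factor gene PAX5 rose by 0.59, CD79A fell by 2.96, and MS4A1 had at most 1 read in any library. The part of these differences in the PIWI and AGO values was not tested.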

How the data were processed

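Per the submitters' processing notes, reads were handled with STAR, featureCounts and DESeq2 on build hg19. The tool versions, the annotation and the strandedness used are not given in the sources here. Per the file headers, each library came with raw gene counts deposited beside FPKM and TPM. Counts were tested and TPM used for levels. FPKM served only to recover gene lengths, and 20728 of 20742 genes with reads gave a length less than 0.01 from an integer. A deposited table of normalized values was not used.

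Counts were fitted with edgeR 4.0.16 in R 4.3.3 over all genes kept by filterByExpr (minimum count 10, minimum total 15): 16108 genes, TMM factors, robust quasi-likelihood F test, group as the only term, Benjamini-Hochberg adjustment, threshold 0.05. The SE was taken as the log2 fold change over the root of F. CPM are TMM-scaled. In 28 rows the gene name reads as a date, and these rows are not named. Some marker genes are not reported here. The fit was tested on simulated counts, in which every gene had the same dispersion (spread beyond counting error) and few genes changed. Those settings differ from the libraries here, so that test checks only that the fit runs as meant.

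Replicates differed by more than sampling noise: chi-square per gene was 27.9 between the shPIWIL4 libraries and 7.89 between the Scrambled libraries. The members and lists were chosen with earlier results of these data known. All 95 list genes were matched by name, 3 of them under older symbols. From each list, up to 4 called genes with the smallest p are named, together with the nearest protein-coding neighbours. The 5 genes closest to PIWIL4 in profile are also named, taken from called genes without placeholder or date-like names. Promoter windows were taken from the RefSeq table for 4 members. The members on chromosome 8, AGO2 and PIWIL2, were left out of this step, and PIWIL3 and PIWIL4 had no entry. Alternatives were other scalings (RLE, upper quartile, library totals), DESeq2 1.42.0, other filters, a replicate block, limma 3.58.1 on log2(TPM + 0.1) and log2(TPM + 1), and leaving out each library.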

Additional observations from a re-analysis of the deposited data

How the results depend on the processing

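PIWIL4 and PIWIL2 were called lower under every alternative that could test them (14 for PIWIL4 and 13 for PIWIL2, which a minimum count of 100 left out). AGO3 was called under none of 14. Leaving out 1 library gave 7085 to 10175 genes called, against 9301 with all 4, 2 to 4 members called, and log2 fold changes of -1.12 to -1.05 for PIWIL4, -2.20 to -2.14 for PIWIL2, 0.17 to 0.33 for AGO1, -0.35 to -0.26 for AGO2, -0.27 to -0.06 for AGO3 and -0.20 to -0.0097 for AGO4. A fit with 1 library in a group assumes that it varies like the other group. AGO1 missed the threshold with upper-quartile factors (0.12), library totals (0.20) and a minimum count of 100 (0.20), and AGO2 with limma on log2(TPM + 0.1) (-0.27) and log2(TPM + 1) (-0.25). AGO4 was called with upper-quartile factors (-0.23), which moved the median of all genes to -0.12. Relative to that median AGO4 was at -0.11. The stricter filter left 2 members called. No direction of a tested member reversed. Apart from the scalings, the cause of a lost call was not tested. Upper-quartile factors gave 3446 genes higher and 5717 lower; the higher share of calls was then 37.6%, where TMM gave 49.7%. Lower PIWI partners numbered 3 with DESeq2 and 2 with the stricter filter. Lower germline genes numbered 1 with DESeq2, with no low-count filter, with the stricter filter and with the replicate block.

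The titles number the libraries 1 and 2 in both groups, but do not say that a number marks a shared culture or day. With the replicate block 2 members were called, AGO1 (0.24, adjusted p = 0.14) and AGO2 (-0.31, adjusted p = 0.070) not among them. The deviations of same-numbered libraries correlated at -0.74 over 9756 genes. A block of crossed pairs, chosen after seeing the data, gave 11369 genes called against 8118 with the pairs as numbered. It called 4 members, AGO1 (0.24, adjusted p = 5.6e-04) and AGO2 (-0.31, adjusted p = 4.2e-05) among them, by edgeR's quasi-likelihood test. Because of how it was chosen, the crossed block is no independent support for those calls.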
